A study of Homo sapiens with 4 samples.

Results

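Cells recognise double-stranded RNA, a by-product of viral replication, through a small set of receptors and adaptors, and 10 genes of this set were examined in AGS cells, out of 47251 genes in the deposited table. AGS is a cell line from a human gastric adenocarcinoma. The genes were chosen by name and were DDX58 (now named RIGI), IFIH1, DHX58, TLR3, EIF2AK2, ADAR, MAVS, TBK1, IKBKE and IRF3, and all 10 had a row in the table. RNA was sequenced from 4 libraries. In 2 of them (sh-MFAP2 replicates 1 and 2) the cells carried a lentiviral short hairpin RNA (shRNA) against MFAP2. The other 2 (control replicates 1 and 2) are labelled only as control, and were taken to carry the scrambled control shRNA of the study's methods. By these methods, cells of both groups had been infected with lentivirus, expressed the reporter GFP and had been selected with puromycin. The vector, the selection and the presence of a hairpin, though not its sequence, would then be common to both. Whether the cells were clones or pools is not stated. The titles name both sh-MFAP2 libraries sh1, whereas a second label names them sh1 and sh2, so it is not settled whether 1 or 2 hairpins were used. Nothing in the labels says whether the libraries of a group came from separate cultures, and p-values then measure only the spread between these libraries.

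RIG-I, encoded by DDX58, and MDA5, encoded by IFIH1, are helicases that bind double-stranded RNA in the cytoplasm, RIG-I short or 5′-triphosphate ends and MDA5 long duplexes. Both pass the signal to MAVS on the mitochondrial surface, from which the kinases TBK1 and IKBKE activate the transcription factor IRF3 and so the genes of type I and type III interferons. TLR3 senses double-stranded RNA in endosomes, EIF2AK2 (PKR) stops translation, and ADAR edits adenosines in the cell's own duplexes and so keeps them from being sensed. Interferon in turn induces most of these genes, MAVS, TBK1 and IRF3 being mainly constitutive.

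The promoters of the genes were read first, because interferon acts on its targets through the interferon-stimulated response element, whose core is a repeat of GAAA. The windows ran from 250 bases before to 50 bases after each start in the RefSeq table (GRCh38.p14), where 8 of the 10 genes were matched, all but DHX58 and IRF3. The repeat GAAA, any 2 bases, GAAA, or its reverse complement TTTC, any 2 bases, TTTC, was found in 1255 of 35116 promoters of the same length (3.57%) or, by gene, in 1195 of 27305 (4.38%). Of the 8 genes, IFIH1, EIF2AK2 and TLR3 held it. DDX58 held a form with only 1 base between the repeats, which occurred on either strand in 1097 promoters (3.12%) and 1056 genes (3.87%). This shorter form was added after the DDX58 sequence had been seen. The matches follow with the motif in capitals, each read 5′ to 3′ on the strand of its gene.
IFIH1, chr2:162318686-162318715, minus strand: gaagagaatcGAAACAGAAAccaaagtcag
IFIH1, chr2:162318824-162318853, minus strand: gagaattcgcTTTCCTTTTCtgtttcccgc
EIF2AK2, chr2:37156967-37156996, minus strand: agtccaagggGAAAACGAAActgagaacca
TLR3, chr4:186069142-186069171, plus strand: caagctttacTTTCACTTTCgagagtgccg
DDX58, chr9:32526380-32526409, minus strand: ggtgcggaggGAAACGAAActagcccgagg
A further match in IFIH1, at chr2:162318828-162318837, overlapped the second of its sites shown. The windows of MAVS, TBK1, IKBKE and ADAR held neither motif, which says only that these letters were not in those windows. For ADAR the nearest window (chr1:154608748-154609047) did not reach 154608186, the start used below for its long form, so the bases around that start were not searched. A match is a description of the sequence and not evidence that a factor binds there.

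The values are FPKM, fragments scaled by transcript length and library depth, and can therefore be compared between genes. Gene and transcript values were deposited separately. The transcripts of a gene can sum to more than its gene value, so gene levels and transcript levels are not on a common scale. The authors' table does not give depth. The step between low values implied 54657426 to 75044787 reads per library. MFAP2, the target of the shRNA, stood at 0 FPKM in each sh-MFAP2 library and at 0.0116 and 0.0138 FPKM in the controls, about 2.01 and 3.02 inferred reads, too few to check the labels by it. Of the markers of gastric epithelial cells, KRT8, KRT18, KRT19 and EPCAM were between 193 and 803 FPKM in every library, while KRT7 was at most 0.848 FPKM and CLDN4 ran from 0.0151 to 47.1 FPKM. Of 8 markers of other cells, PTPRC, CD3E, PECAM1, VWF, COL1A2 and DCN were at or below 0.0298 FPKM. CD68 (3.12 to 7.85 FPKM) and COL1A1 (2.07 to 4.92 FPKM) were lower in both sh-MFAP2 libraries than in both controls. Their part in the results was not tested. Less RNA per cell and fewer cells of a kind cannot be told apart in bulk samples.

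None of the RNA-sensing genes changed between the groups by the study's thresholds, an unadjusted p under 0.01 together with an adjusted p under 0.05. The test was limma, adjusted by Benjamini-Hochberg over 9873 genes whose mean reached 1 FPKM. DHX58 lay just under this mean (0.988 FPKM), so 9 of the 10 genes were tested and 0 were called, against 0.273% of all genes tested. At an unadjusted p under 0.05 there was 1 gene, IFIH1, among the 9, which was higher, and 3.89% of all genes tested were higher and 8.41% lower at that limit. For DDX58, IFIH1 and TLR3 each sh-MFAP2 value exceeded each control value (3 of 9 genes, 33.3%, against 17.5% of all genes tested). In none of the 9 was each sh-MFAP2 value below each control value (31.4% of all genes tested). The median log2 fold change was 0.06 over the 9 genes and -0.05 over all genes tested. Of the 3 constitutive genes MAVS, TBK1 and IRF3, none had groups that did not overlap.

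**Figure D1:**
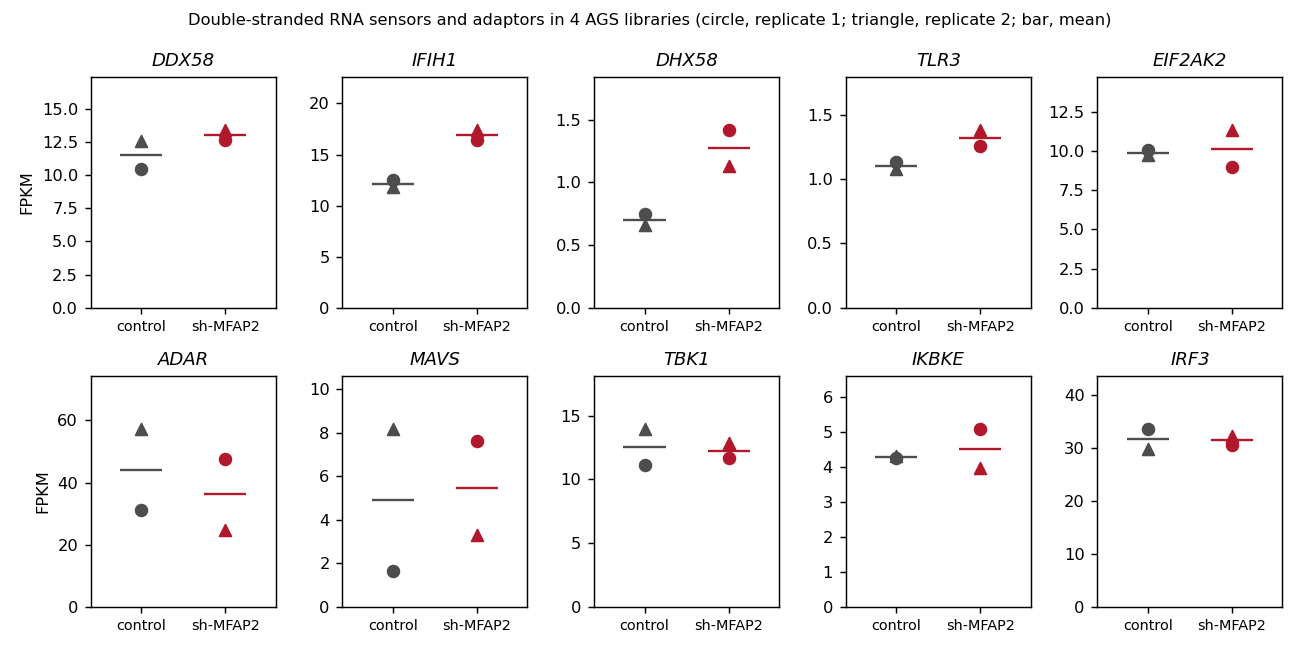
FPKM (y axis, linear from 0) of each of the 10 genes in the 2 control and 2 sh-MFAP2 libraries, circles for replicate 1, triangles for replicate 2 and bars for group means. The groups do not overlap for DDX58, IFIH1, DHX58 and TLR3, whereas MAVS and ADAR vary widely within both groups.

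IFIH1 (ENSG00000115267, chromosome 2 of GRCh38, 162267079 to 162318703, minus strand) was the clearest of the sensors. The first and second sh-MFAP2 libraries measured 16.4 and 17.4 FPKM, and the first and second control libraries 12.5 and 11.8 FPKM. Values of other genes keep this order of replicates. The replicates of each group lay close together and the groups were well apart. The mean in sh-MFAP2 was 1.39 times that in control, and the difference on the log2(FPKM + 1) scale was 0.45 (standard error 0.105, 95% interval 0.15 to 0.75, unadjusted p = 0.0151 and adjusted p = 0.347 in limma). In the order of log2 fold changes this was rank 612 of the 9873 genes. The inferred reads behind the values numbered 3348 to 4530, so counting error was small against the difference. The full-length transcript ENST00000263642, coding for 1025 residues, made up about 95% to 97.7% of the transcript FPKM of IFIH1 and was likewise apart between the groups, with 20.4 and 21.7 FPKM against 15.4 and 14.7 FPKM.

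DDX58 (ENSG00000107201, chromosome 9, 32455705 to 32526324, minus strand) had 12.7 and 13.4 FPKM in sh-MFAP2 cells and 10.4 and 12.6 FPKM in control cells. Both sh-MFAP2 values were above both controls, although sh-MFAP2 replicate 1 exceeded control replicate 2 only slightly. The log2 fold change was 0.17 (standard error 0.135, 95% interval -0.21 to 0.55, adjusted p = 0.610 in limma), and it was 0.05 and 0.29 on leaving out control replicates 1 and 2. The difference was thus within the spread between libraries, of which the controls contributed most, differing by 1.20 times.

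DHX58 (ENSG00000108771, chromosome 17, 42101404 to 42112733, minus strand) encodes LGP2, the third helicase of the family, which lacks the signalling domains of RIG-I and MDA5 and modulates both. It had the lowest mean gene value of the 10 genes, with 1.42 and 1.13 FPKM in sh-MFAP2 cells and 0.745 and 0.662 FPKM in control cells. The groups did not overlap, and the mean in sh-MFAP2 was 1.81 times that in control. Since it missed the filter only through its low control values, DHX58 was fitted with all 23806 genes above 0 in at least 1 library, where the log2 fold change was 0.41 (standard error 0.130, 95% interval 0.03 to 0.80, unadjusted p = 0.0419 and adjusted p = 0.527 in limma). In that fit limma called 0 of the 10 genes and 0.0252% of all genes, 3.84% of all genes were higher at an unadjusted p under 0.05, and each sh-MFAP2 value exceeded each control value in 4 of the 10 genes and in 16% of all genes. The pseudocount of 1 understates a change at this level, and 170 to 332 inferred reads lay behind each value.

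TLR3 (ENSG00000164342, chromosome 4, 186069152 to 186088069, plus strand), the endosomal receptor, had 1.25 and 1.38 FPKM in sh-MFAP2 cells against 1.13 and 1.08 FPKM in control cells. The groups were apart but close, and the estimate of 0.14 (standard error 0.103, 95% interval -0.15 to 0.43, adjusted p = 0.588 in limma) was not distinguishable from the spread between libraries. Inferred reads numbered 451 to 543.

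**Figure D2:**
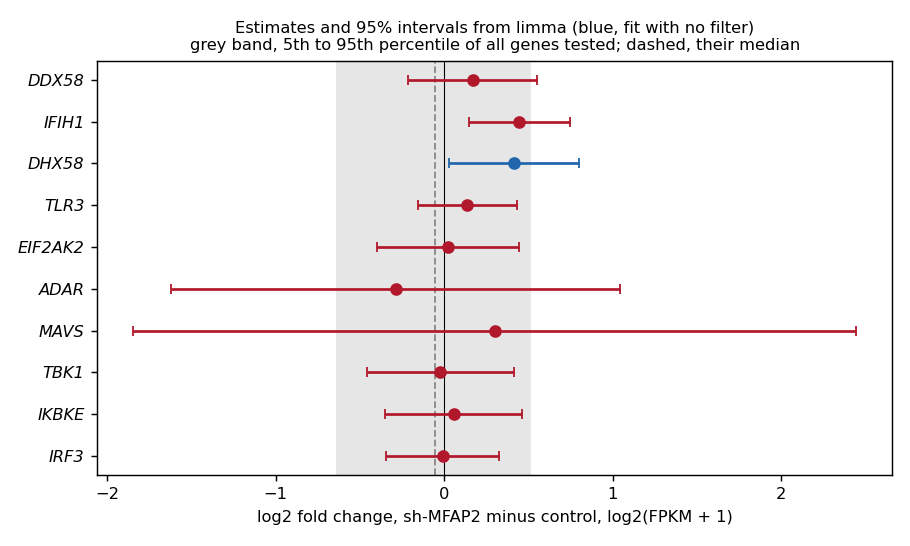
Log2 fold change on the log2(FPKM + 1) scale (x axis, sh-MFAP2 minus control) of each gene with its 95% interval from limma, DHX58 in blue from the fit with no filter. The grey band spans -0.64 to 0.51, the 5th to 95th percentile of all genes tested, and the intervals of IFIH1 and DHX58 lie above 0 before adjustment while those of MAVS and ADAR are the widest.

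EIF2AK2 (ENSG00000055332, chromosome 2, 37099210 to 37157065, minus strand), the kinase PKR that phosphorylates the translation factor eIF2 on binding double-stranded RNA, had 8.96 and 11.3 FPKM in sh-MFAP2 cells and 10.0 and 9.72 FPKM in control cells. Both controls lay between the sh-MFAP2 values. Its log2 fold change was 0.02 (standard error 0.149, 95% interval -0.40 to 0.45, adjusted p = 0.953 in limma). The value was -0.14 when the FPKM of its transcripts were summed, so no direction can be given. EIF2AK2 carries the same motif in its promoter as IFIH1, as shown above.

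ADAR (ENSG00000160710, chromosome 1, 154582057 to 154628013, minus strand) had the highest mean gene value of the 10 genes and varied most beside MAVS. It had 47.7 and 24.7 FPKM in sh-MFAP2 cells and 31.1 and 57.1 FPKM in control cells, the high values being those of sh-MFAP2 replicate 1 and control replicate 2. The replicates of a group differed by 1.93 times in sh-MFAP2 and 1.84 times in control, and the groups overlapped. The log2 fold change was -0.29 (standard error 0.469, 95% interval -1.62 to 1.05, adjusted p = 0.801 in limma), and it was 0.17 when sh-MFAP2 replicate 2 was left out and 0.14 when control replicate 2 was. On the log2 scale, the difference between replicates was larger than for 93.3% of all genes tested in sh-MFAP2 and 94.1% in control.

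The division of ADAR between its long and short transcripts did not overlap between the groups, whereas the gene values did. How often the transcripts of other genes divide in this way was not examined. The gene makes a long protein, p150, whose transcript is started by interferon and which enters the cytoplasm, and a shorter, constitutive and mainly nuclear protein, p110. The long form was taken as ENST00000368474, coding for 1226 residues with its start at 154608186, and the short form as ENST00000368471, coding for 931 residues with its start upstream at 154627968 (GENCODE 29, GRCh38). The long form had 48.5 and 20.4 FPKM in sh-MFAP2 cells and 21.5 and 27.9 FPKM in control cells, so that its groups overlapped. The short form had 10.3 and 9.23 FPKM in sh-MFAP2 cells against 16.0 and 42.3 FPKM in control cells, lower in both sh-MFAP2 libraries. Its log2 fold change was -1.34 (standard error 0.523, unadjusted p = 0.0675 and adjusted p = 0.674 in limma over 22312 transcripts), which did not pass the test. The size of this difference turned on the controls, being -0.66 when control replicate 2 was left out and -2.01 when control replicate 1 was. Of the FPKM of both forms together, the long form made up 82.5% and 68.9% in the sh-MFAP2 libraries and 57.3% and 39.7% in the controls. The log2 ratio of long over short form averaged 1.69 in sh-MFAP2 and -0.09 in control, a difference of 1.78 that lay between 1.24 and 2.33 when single libraries were left out. An exact permutation test of this ratio gave a two-sided p = 0.333, which is the smallest that 2 against 2 libraries allow. Any ratio without overlap between the groups gives this value, so the test adds nothing to the separation. Most of the bases of both forms are shared, and the values rest on how the authors' program divided these reads.

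**Figure D3:**
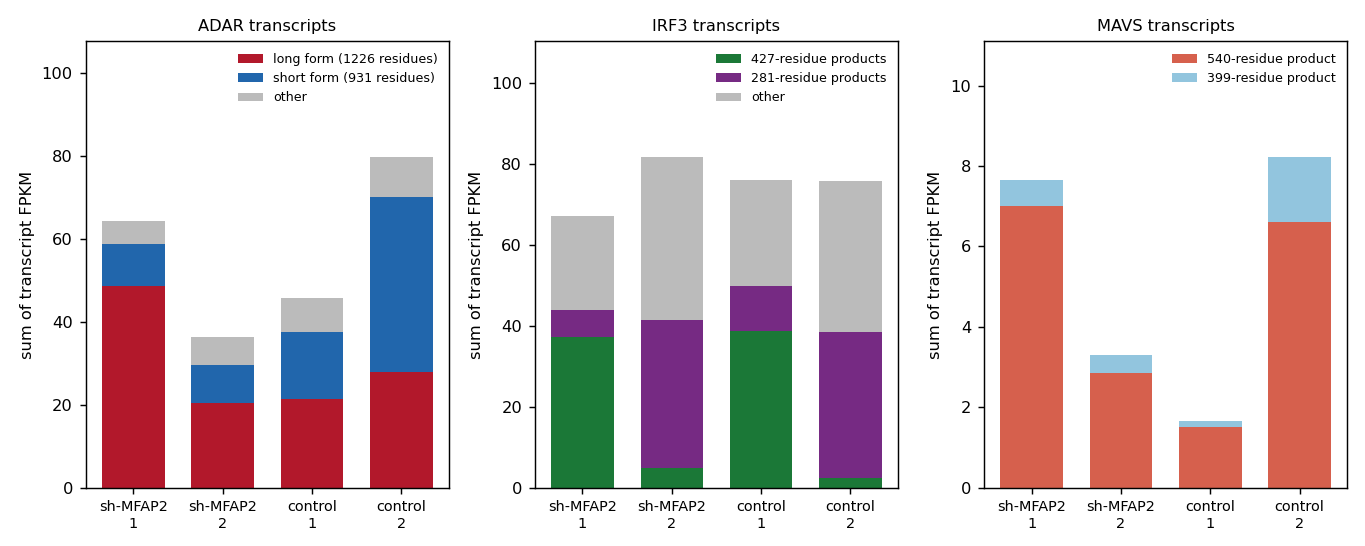
Sum of transcript FPKM (y axis, linear from 0) per library for ADAR, IRF3 and MAVS, divided by the length of the coded protein. The long ADAR form makes up more of the bar in both sh-MFAP2 libraries, the IRF3 products of 427 and 281 residues trade places between replicates 1 and 2 of both groups, and the whole MAVS bar varies from library to library.

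MAVS (ENSG00000088888, chromosome 20, 3846799 to 3876123, plus strand), the adaptor on which RIG-I and MDA5 converge, had 7.62 and 3.28 FPKM in sh-MFAP2 cells and 1.65 and 8.16 FPKM in control cells. Control replicate 1 was the lowest and control replicate 2 the highest of the 4 libraries, with both sh-MFAP2 values between them. The controls differed by 4.95 times, on the log2 scale a larger difference than for 98.2% of all genes tested. The log2 fold change was 0.30 (standard error 0.754, 95% interval -1.84 to 2.45, adjusted p = 0.873 in limma), and it became -0.59 and 1.20 on leaving out control replicates 1 and 2, and -0.20 and 0.81 on leaving out sh-MFAP2 replicates 1 and 2. The interval spans large changes in either direction, so MAVS was not resolved by these libraries. Both of its listed transcripts were low in control replicate 1, ENST00000428216 (540 residues) at 1.50 FPKM and ENST00000416600 (399 residues) at 0.159 FPKM. The inferred reads behind the gene ran from 1152 to 7212, so counting error was small against this difference. The leading transcript is 11714 bases long, of which 13.8% are coding. As with ADAR, the high libraries were sh-MFAP2 replicate 1 and control replicate 2.

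TBK1 and IKBKE, the kinases below MAVS, did not separate the groups. TBK1 (ENSG00000183735, chromosome 12, 64451880 to 64502108, plus strand) had 11.7 and 12.9 FPKM in sh-MFAP2 cells, within the 11.1 and 13.9 FPKM of the controls. Its log2 fold change of -0.02 (standard error 0.153, 95% interval -0.46 to 0.41, adjusted p = 0.961 in limma) turned to 0.03 with quantile normalization and to 0.02 with scaling by median of ratios. IKBKE (ENSG00000263528, chromosome 1, 206470476 to 206496889, plus strand), the interferon-inducible relative of TBK1, had 5.06 and 3.96 FPKM in sh-MFAP2 cells on either side of the 4.24 and 4.31 FPKM of the controls. Its log2 fold change was 0.06 (standard error 0.143, 95% interval -0.35 to 0.46, adjusted p = 0.873 in limma), and -0.01 with summed transcripts.

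IRF3 (ENSG00000126456, chromosome 19, 49659569 to 49665875, minus strand), which carries the signal to the nucleus, had 30.6 and 32.1 FPKM in sh-MFAP2 cells and 33.5 and 29.7 FPKM in control cells. The groups overlapped, with a log2 fold change of -0.01 (standard error 0.118, 95% interval -0.35 to 0.33, adjusted p = 0.982 in limma), 0.01 with quantile normalization and 0.04 with scaling by median of ratios. The FPKM of its transcripts summed to more than these gene values, to 67.1 and 81.8 FPKM in sh-MFAP2 cells and 76.0 and 75.8 FPKM in control cells. These sums were divided in different ways. The 3 transcripts coding for 427 residues summed to 37.3 FPKM in sh-MFAP2 replicate 1 and 38.8 FPKM in control replicate 1, but to 4.91 and 2.33 FPKM in replicate 2 of these groups. The 4 transcripts coding for 281 residues did the reverse, with 6.76 and 11.2 FPKM in replicates 1 and 36.5 and 36.2 FPKM in replicates 2 of sh-MFAP2 and control. The exchange followed the replicate number and not the group. Exons of IRF3 share 734 of 3794 bases with BCL2L12 on the opposite strand, and as the strand of the libraries is not stated, reads from these bases cannot be told apart. BCL2L12 had 30.3 to 36.3 FPKM.

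Of the 34 transcripts of these genes whose mean reached 1 FPKM, limma called 0, and 0 had an unadjusted p under 0.05. Over all 22312 transcripts tested 0 were called (0%) and 1704 had an unadjusted p under 0.05, 3.22% higher and 4.41% lower. In 4 of the 34 each sh-MFAP2 value exceeded each control value (17.8% of all transcripts tested), namely the leading transcripts of DDX58, IFIH1, DHX58 and TLR3. In 4 both were below (24.9% of all transcripts tested), and these were all transcripts of ADAR. Among them was ENST00000529168, which codes for 1200 residues, starts at 154608170 and was not counted in the long form above. It had 1.92 and 1.78 FPKM in sh-MFAP2 cells against 2.21 and 2.86 FPKM in control cells.

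In mean level the genes ran from ADAR (40.2 FPKM) over IRF3 (31.5), IFIH1 (14.5), TBK1 (12.4), DDX58 (12.3), EIF2AK2 (10.0), MAVS (5.18) and IKBKE (4.39) to TLR3 (1.21) and DHX58 (0.988 FPKM). Between IRF3 and IFIH1, EIF2AK2 and MAVS, and IKBKE and TLR3 the ranges over the 4 libraries were separate. All other neighbours in this order overlapped, so that IFIH1, TBK1, DDX58 and EIF2AK2 could not be ranked one by one. The order is that of the gene values. With summed transcripts, IRF3 stood above ADAR, and DHX58 above TLR3, in every library but control replicate 2.

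The genes around these were described by lists. Among interferon response genes outside the 10, 38 of 45 were tested, 0 were called, and 24 had groups that did not overlap with sh-MFAP2 above (63.2%, against 17.5% of all genes tested), with 1 below. The median log2 fold change was 0.40. The highest log2 fold change without overlap was that of IFIT5, a protein that binds RNA ends, at 2.63, with 7.85 and 8.76 FPKM against 1.13 and 0.0531 FPKM (adjusted p = 0.238 in limma), the controls differing widely. IFIT1, IFIT2 and IFIT3 overlapped between the groups, with log2 fold changes of 0.37, -1.17 and 0.79. BST2, which tethers budding virions, was the 1 below, with 29.6 and 23.1 FPKM against 37.6 and 42.9 FPKM (adjusted p = 0.393 in limma). Of the 14 interferon genes only IFNB1 and IFNL1 had a mean of at least 1 FPKM, and 6 were listed at 0 in all libraries. IFNL1, a type III interferon, had 5.83 and 6.28 FPKM in sh-MFAP2 cells and 3.49 and 3.98 FPKM in control cells (log2 fold change 0.58, standard error 0.115, adjusted p = 0.330 in limma). IFNB1, the type I interferon that IRF3 drives, had 1.26 and 1.44 FPKM against 1.08 and 0.951 FPKM (adjusted p = 0.481 in limma). Transcripts of both interferons were therefore listed in the control libraries as well. Under the filter, 3 further interferon genes are named after their values were seen. The type III interferons IFNL2 and IFNL3 were higher in both sh-MFAP2 libraries. IFNL2 had 1.12 and 0.919 FPKM against 0.470 and 0.321 FPKM, and IFNL3 1.18 and 0.918 FPKM against 0.447 and 0.537 FPKM. IFNE, an epithelial type I interferon, went the other way, at 0 in each sh-MFAP2 library and at 0.619 and 0.579 FPKM in the controls.

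**Figure D4:**
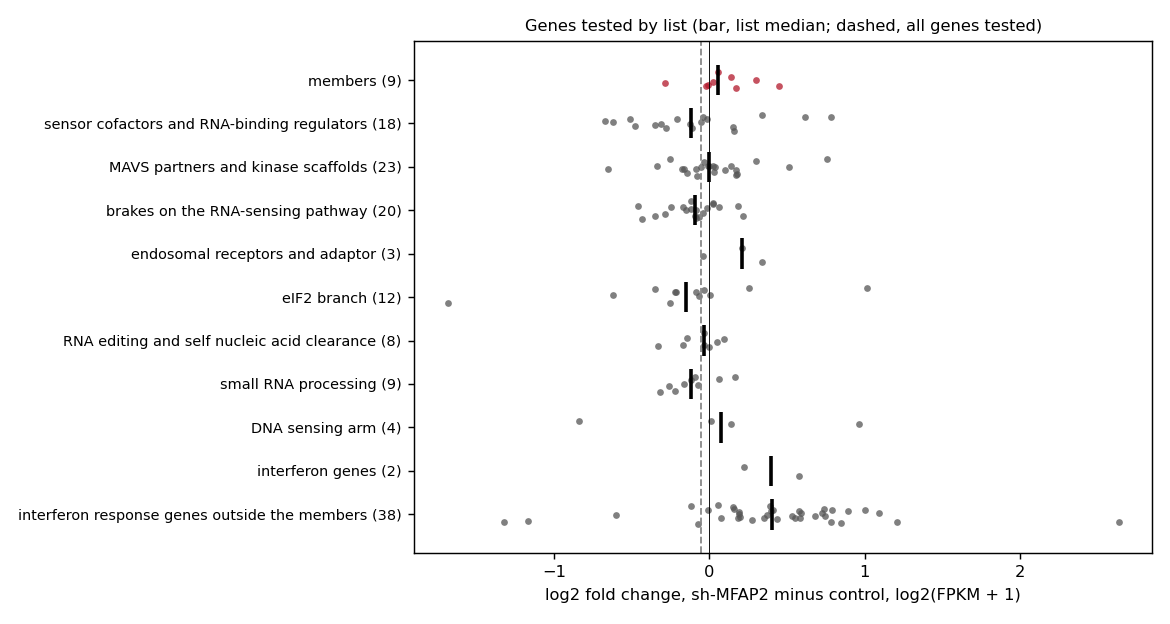
Log2 fold change on the log2(FPKM + 1) scale (x axis) of every gene tested in the RNA-sensing set (red) and in each surrounding list (grey, number tested in brackets), with the median of each list as a bar and that of all genes tested, -0.05, as a dashed line. The interferon response genes centre on 0.40, whereas the RNA-sensing set centres on 0.06 and the cofactor list on -0.12.

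More cofactors of the sensors were lower than higher. Of 18 genes, all tested, 0 were called, 2 were above and 9 below without overlap (11.1% and 50%, against 17.5% and 31.4% of all genes tested), with a median of -0.12. DDX60, an interferon-induced helicase related to the sensors, was the highest of them without overlap, with 9.56 and 9.55 FPKM against 6.0 and 5.77 FPKM (log2 fold change 0.62, standard error 0.098, adjusted p = 0.256 in limma). DDX3X, an RNA helicase that also binds TBK1 and IKBKE, was the lowest, with 16.8 and 20.9 FPKM against 29 and 32.1 FPKM (log2 fold change -0.67, adjusted p = 0.346 in limma).

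Among partners of MAVS and scaffolds of its kinases, 0 of 23 tested genes were called, with 4 above and 5 below without overlap (17.4% and 21.7%, against 17.5% and 31.4% of all genes tested) and a median of -0.00. IRF7, the interferon-induced relative of IRF3, had 21.3 and 19.7 FPKM against 11.3 and 12.1 FPKM (log2 fold change 0.76, standard error 0.111, adjusted p = 0.238 in limma). MFN1, a mitochondrial fusion protein, had 8.86 and 6.31 FPKM against 12.5 and 12.1 FPKM (adjusted p = 0.389 in limma). Of 20 tested brakes on the pathway 0 were called, 1 was above and 5 were below without overlap (5% and 25%, both under the shares of all genes tested), with a median of -0.09. The ends of that list were NLRC5 (1.71 and 1.39 against 1.23 and 1.24 FPKM) and the ubiquitin ligase SMURF1 (6.45 and 7.16 against 8.79 and 10.3 FPKM).

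Beside PKR, the eIF2 branch had 12 genes tested, 0 called, 2 above and 5 below without overlap (16.7% and 41.7%, against 17.5% and 31.4% of all genes tested), and a median of -0.15. PRKRA, the protein activator of PKR, had 5.06 and 6.28 FPKM against 8.03 and 10.6 FPKM (log2 fold change -0.62, adjusted p = 0.394 in limma). ATF4, whose mRNA is translated when eIF2 is phosphorylated, had 125 and 128 FPKM against 39.8 and 96.6 FPKM (adjusted p = 0.460 in limma), the controls differing widely. Beside TLR3, only 3 of 7 endosomal genes were tested, and 0 were called. UNC93B1, which carries these receptors to endosomes, had 15.1 and 14.6 FPKM against 12 and 11.2 FPKM (log2 fold change 0.34, adjusted p = 0.394 in limma), while TLR7, TLR8, TLR9 and CD14 were at or below 0.0511 FPKM. Beside ADAR, 8 of 13 genes of RNA editing and clearance of self nucleic acids were tested, with 0 called, 1 above and 4 below without overlap (12.5% and 50%, against 17.5% and 31.4% of all genes tested). The exonuclease PNPT1 had 15.5 and 18.0 FPKM against 21.4 and 21.1 FPKM (adjusted p = 0.415 in limma), and RNASEH2C had 10.0 and 10.2 FPKM against 9.84 and 9.67 FPKM.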

How the data were processed

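The 4 RNA-seq libraries of AGS cells, 2 per group, were grouped by their labels. The authors deposited FPKM values for 47251 genes and 180500 transcripts. The unit was inferred from the values. The aligner and quantification program are not given in the sources used here, and hg38 is named in the submitters' processing notes. Names and coordinates came from GENCODE 29 on GRCh38, which held 92.5% of the gene identifiers, and promoters from RefSeq.

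Genes and transcripts with a mean of at least 1 FPKM were fitted on the log2(FPKM + 1) scale by lmFit and trended eBayes in limma 3.58.1 (R 4.3.3), and p-values were adjusted by Benjamini-Hochberg over all features tested. The methods' thresholds were kept (p under 0.01, adjusted p under 0.05). The random variance model of the study and limma both share variance between genes. The fit was tested on simulated data. Depth was inferred from low values of single-transcript genes over 1000 bases, of which 60.8% to 63.7% lay within 0.05 of a whole step. As the other values did not, no counts were recovered and no count test was run. Intervals are at 95%. Same-numbered libraries were not treated as paired in the main fit (correlation of deviations -0.06 across genes), and the labels do not say whether they are. All 173 genes of the lists were matched, 4 by older symbols.

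The 10 genes and the lists were chosen with earlier results of these data known. Named from each list were the genes with the largest rise and fall whose groups did not overlap. Alternatives were other filters, pseudocounts, scalings and variance models, summed transcripts, a replicate block and each library left out. Figures were drawn with matplotlib 3.10.9 in Python 3.11.15.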

Additional observations from a re-analysis of the deposited data

How the results depend on the processing

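No RNA-sensing gene was called in limma under any filter, pseudocount, scaling or variance model, or with summed transcripts, where 6 to 31 of all genes tested were called. None was called with the replicate block either, nor was any of their transcripts under the filter, pseudocount or block. The block called 0 of all genes and the main transcript fit 0 of all transcripts, so these fits could not single out the set. For left-out libraries no calls are given. At an unadjusted p under 0.05 the count in the main fit was 1, which was IFIH1. It was 2 of 10, IFIH1 and DHX58, with every gene above 0 in at least 1 library, where 3.84% of all genes were higher at that limit. With the block it was 0 (IFIH1 unadjusted p = 0.0580 in limma). Blocking on replicate number left 0 of 9 genes called, and over all genes tested it was 0 against 27. The labels do not say whether libraries of the same number are paired. Their deviations correlated at -0.06 across genes and -0.01 across transcripts, which cannot settle it, and the division of IRF3 transcripts followed the replicate number. IFIH1 stayed between 0.41 and 0.49 and DDX58 between 0.05 and 0.29 over 12 alternatives, TLR3 kept its direction over 11, and DHX58 over the 3 in which it was fitted.

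The median of 0.06 became 0.10 with every gene above 0, 0.0250 with a mean of at least 5 FPKM, 0.14 with quantile normalization, 0.10 with median of ratios and 0.0821 with summed transcripts, where the genes tested also changed in number. TBK1 reversed to 0.0289 and 0.0249, and IRF3 to 0.00629 and 0.0415, with quantile normalization and median of ratios, which moved the median of all genes tested from -0.05 to -8.72e-05 and -0.01. EIF2AK2 reversed to -0.14 and IKBKE to -0.00597 with summed transcripts, and the cause of these 2 reversals was not tested.

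When single libraries were left out, the lone library being assumed to vary like the other group, the median ran from 0.0421 to 0.13, and the genes above without overlap numbered 4 to 6 and those below 1 to 3. These were out of 9 genes, or 10 without a control, as DHX58 then passed the filter, and 26.5% to 33.5% of all genes tested were above and 41.9% to 49.5% below. MAVS ran from -0.59 to 1.20, ADAR from -0.75 to 0.17, EIF2AK2 from -0.13 to 0.18, IKBKE from -0.0874 to 0.20, TBK1 from -0.17 to 0.13 and IRF3 from -0.0908 to 0.0744. Alternatives for the ADAR forms were chosen after seeing the data, and with pseudocounts of 0.1 and 1 the ratio differed by 1.77 and 1.69. Depth is inferred and intervals of single FPKM values cannot be given.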

Other observations

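The enzymes that process short hairpins were measured in the same libraries. Of 11 genes from DROSHA to the AGO and TNRC6 families 9 were tested, and 0 were called in limma or had an unadjusted p under 0.05. Without overlap, 4 of them were below in sh-MFAP2 (44.4%, against 31.4% of all genes tested) and 1 was above. DICER1, which cuts hairpins to their mature length, had 5.26 and 6.01 FPKM in sh-MFAP2 cells against 6.99 and 7.50 FPKM in control cells (log2 fold change -0.31, standard error 0.117, adjusted p = 0.415 in limma). DGCR8, the partner of DROSHA, had 8.10 and 7.80 FPKM against 7.49 and 7.65 FPKM.

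Of 6 genes of the DNA-sensing arm 4 were tested and 0 were called in limma. At an unadjusted p under 0.05 there was 1, which was higher, and 3.89% of all genes tested were higher at that limit. TMEM173, which encodes STING, and AIM2 were not tested, being at or below 0.0816 FPKM. Without overlap, 2 were above in sh-MFAP2 and 1, MB21D1, was below (50% and 25%, against 17.5% and 31.4% of all genes tested). IFI16, an interferon-induced sensor of DNA, had 4.94 and 4.75 FPKM in sh-MFAP2 cells and 1.83 and 2.17 FPKM in control cells (log2 fold change 0.96, standard error 0.114, unadjusted p = 0.00139 and adjusted p = 0.164 in limma). MB21D1, which encodes the DNA sensor cGAS, had 2.93 and 4.38 FPKM against 11.3 and 4.52 FPKM (adjusted p = 0.507 in limma), a difference that rests on control replicate 1.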
